A study of Mus musculus with 21 samples.

Results

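The 6 mouse Iroquois homeobox genes, Irx1 to Irx6, were followed across wild-type and App knock-in colon and colon tumours. They were taken by symbol from a count table of 24062 genes, which holds all 6 of them and no other row whose symbol begins with Irx. The family was chosen by symbol, but with measured values in view: Irx4 stood among the largest rises of wild-type male tumours over normal colon. The values of the family in that comparison are therefore given as a description, without a test. Of the 6 genes, 4 passed the filter on low counts (Irx2, Irx3, Irx4 and Irx5) and are among the 15936 genes tested. Irx1 and Irx6 did not pass and are given as counts.

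Expression was measured by RNA sequencing of total RNA depleted of ribosomal RNA, in 21 libraries from colon of C57BL/6 mice, 3 in each of 7 groups. Mice were wild-type (WT) or carried App NL-G-F (knock-in, KI), in which the amyloid precursor protein gene bears mutations linked to Alzheimer's disease. The groups were WT male normal colon, WT male tumour, KI male normal colon, KI male tumour, WT female normal colon, WT female tumour and KI female normal colon; a KI female tumour group was not analysed here. Tumours came from AOM/DSS, the carcinogen azoxymethane given with dextran sulfate sodium, an irritant of the colon epithelium. The labels call the normal libraries untreated, whereas the series text speaks of tissue beside tumours, or of normal colon from animals without tumours. If the labels hold, tumour and AOM/DSS exposure cannot be told apart in the comparisons of tumour with normal colon. The labels give no ages and do not say whether libraries come from separate animals, so p-values measure the spread between libraries, which may in part be technical. The question put by the series is how the App mutations alter colorectal tumour formation, and with what dependence on sex.

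Library totals ran from 3414123 to 26174008 counts. Levels are given as CPM, the count relative to the scaled library total, expressed as counts per 1e+06, and 3 counts, which correspond to 0.127 to 0.873 CPM depending on the library, were taken as the smallest measurable amount. App, the gene altered in the knock-in, averaged between 509 and 943 CPM in the 7 groups; counts per gene cannot tell the mutant from the wild-type sequence and do not check the genotype. Epithelial markers summed to 5425 CPM or more in every library. The 6 smooth muscle markers all passed the test as lower in tumours in each of the 3 comparisons of tumour with normal colon. In such bulk samples, fewer cells of a type and less RNA per cell cannot be told apart. Markers of stratified squamous epithelium (Krt5, Krt14, Krt13 and Trp63), which lines the anal canal and not the colon, summed to between 301 and 2572 CPM in 7 libraries of 5 groups and to between 2.32 and 139 CPM in the other 14. These 7 libraries are named below where an Irx level moved with them.

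Iroquois genes encode transcription factors of the TALE homeobox class, whose homeodomain carries extra residues between its helices, and which share a further conserved stretch, the Iro box, outside it. They pattern the heart, limb, neural tube, eye and other organs, and in mammals they lie in a pair of clusters that arose by duplication. In colon tumours of the AOM/DSS model, activation of the Wnt pathway is a usual early step, and feedback targets such as Axin2 and Notum serve as its readout.

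In the GENCODE M21 annotation of GRCm38, the build named in the submitters' processing notes (mm10), Irx1, Irx2 and Irx4 lie within 1312 kb of chromosome 13. Irx1 is at chr13:71957921-71963723 on the minus strand, Irx2 at chr13:72628820-72634198 and Irx4 at chr13:73260479-73269608, both on the plus strand. Irx3, Irx5 and Irx6 lie within 882 kb of chromosome 8. Irx3 is at chr8:91798525-91802067 on the minus strand, Irx5 at chr8:92357625-92376286 and Irx6 at chr8:92674288-92680956, both on the plus strand. No other protein-coding gene lies inside either cluster. The long noncoding RNA gene Crnde, named for its expression in colorectal neoplasia, at chr8:92326033-92356120 on the minus strand, starts 1505 bases from the start of Irx5 and is transcribed away from it, so it is described beside Irx5. Irx3os overlaps Irx3 and Gm45505 overlaps Irx6 on the opposite strand, and since the strand setting of the counting is not given in the sources used here, reads of these pairs could not be told apart.

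The homeobox is where the 6 genes are most alike, and it bears on whether reads could be shared between them. A stretch of 42 coding bases at the end of the homeodomain's DNA-contacting helix was read from the longest coding transcript of each gene. Capitals mark bases that differ from Irx4.
Irx4: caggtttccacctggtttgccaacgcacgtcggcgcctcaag
Irx5: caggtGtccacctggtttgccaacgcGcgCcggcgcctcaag
Irx3: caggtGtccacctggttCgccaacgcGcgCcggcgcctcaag
Irx6: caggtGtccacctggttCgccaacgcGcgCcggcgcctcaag
Irx1: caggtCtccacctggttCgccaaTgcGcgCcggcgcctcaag
Irx2: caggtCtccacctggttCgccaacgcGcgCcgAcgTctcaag
Irx5 differed from Irx4 at 3 of these bases, Irx3 and Irx6 at 4, Irx1 at 5 and Irx2 at 6. The Irx4 stretch is at chr13:73267658-73267699 in exon 5 of 6, and that of Irx5 at chr8:92359762-92359803 in exon 2 of 5. Over whole transcripts, the longest exact run shared by 2 members ranged from 23 bases (Irx2 with Irx4, and Irx4 with Irx5) to 88 bases (Irx3 with Irx6). Irx2 and Irx5 shared 65 bases and Irx3 and Irx5 shared 50. Read length and the treatment of reads with several matches are not given in the sources used here, so low counts of Irx2, Irx3 and Irx6 are uncertain on this point.

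Over all libraries Irx4 and Irx5 were the 2 abundant members, and they were measured best, with 3180 and 1694 counts over the 21 libraries. Irx3 had 136 counts, Irx2 105, Irx1 31 and Irx6 20. Per kilobase of transcript, mean levels in WT male tumours were 25.7 CPM per kb for Irx4, 6.40 for Irx5, 0.157 for Irx2 and 0.154 for Irx3. In WT female tumours Irx4 and Irx5 stood at 7.06 and 6.96 CPM per kb. In KI male normal colon the order was the other way, with 1.89 CPM per kb for Irx4 and 3.60 for Irx5, although the libraries of the 2 genes overlapped there. Irx5 also had the higher mean in both female normal groups, at 0.134 against 0.0562 CPM per kb in WT and 0.141 against 0.123 in KI. In KI female normal colon Irx3 (0.193 CPM per kb) and Irx2 (0.178) stood above both. These female orders rest on few counts, and the libraries of the genes overlapped. KI female normal colon held 23 counts of Irx3, 21 of Irx2, 17 of Irx5 and 16 of Irx4. WT female normal colon held 11 of Irx5 and 5 of Irx4.

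Irx4, a regulator of ventricular identity in the heart, was described by level before any contrast. In WT male tumours it stood at 49.4, 72.1 and 77.9 CPM in replicates 1, 2 and 3, and in WT male normal colon at 9.49, 9.58 and 0 CPM. All 3 tumours lay above all 3 normal libraries, as for 26% of tested genes that were higher. Replicate 3 of normal colon had no Irx4 count at all. In WT female tumours Irx4 stood at 21.7, 8.53 and 24.6 CPM against 0.127, 0 and 0.310 CPM in WT female normal colon. Here too the groups did not overlap, as for 29.9% of tested genes that were higher, and each of the normal libraries was at or under 3 counts. In KI male tumours Irx4 stood at 21.97, 0.296 and 8.89 CPM and in KI male normal colon at 2.24, 0.886 and 11.6 CPM. These groups overlapped, the second tumour replicate lying below every KI male normal library. In KI female normal colon the values were 0.952 CPM in replicate 1 and 0 CPM in the libraries called a and b here, because their columns share a header. By mean level the order was WT male tumour (66.5 ± 15.1 CPM; SD, n = 3), WT female tumour (18.3 ± 8.55), KI male tumour (10.4 ± 10.9), WT male normal (6.36 ± 5.51), KI male normal (4.90 ± 5.82), KI female normal (0.317 ± 0.549) and WT female normal (0.145 ± 0.156). Only the step from WT male to WT female tumours was free of overlap between neighbours in that order.

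Irx5, which acts in cardiac repolarisation, retina and craniofacial development, was more even among tumours of WT mice. It stood at 17.3, 16.6 and 15.0 CPM in WT male tumours and at 4.53, 3.44 and 1.39 CPM in WT male normal colon. WT female tumours had 26.3, 19.8 and 7.17 CPM and WT female normal colon 0.254, 0 and 0.774 CPM. Tumours lay above normal colon without overlap in both sexes of WT mice. Of all tested genes, 26% were higher without overlap in WT males and 29.9% in WT females. KI male tumours had 11.9, 0.591 and 11.8 CPM, and KI male normal colon 13.1, 1.46 and 13.0 CPM. Within each of these KI groups, replicate 2 lay far below the other 2 libraries, and the groups overlapped. KI female normal colon had 0.892 CPM in replicate 1 and 0.112 and 0.0765 CPM in libraries a and b.

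**Figure D1:**
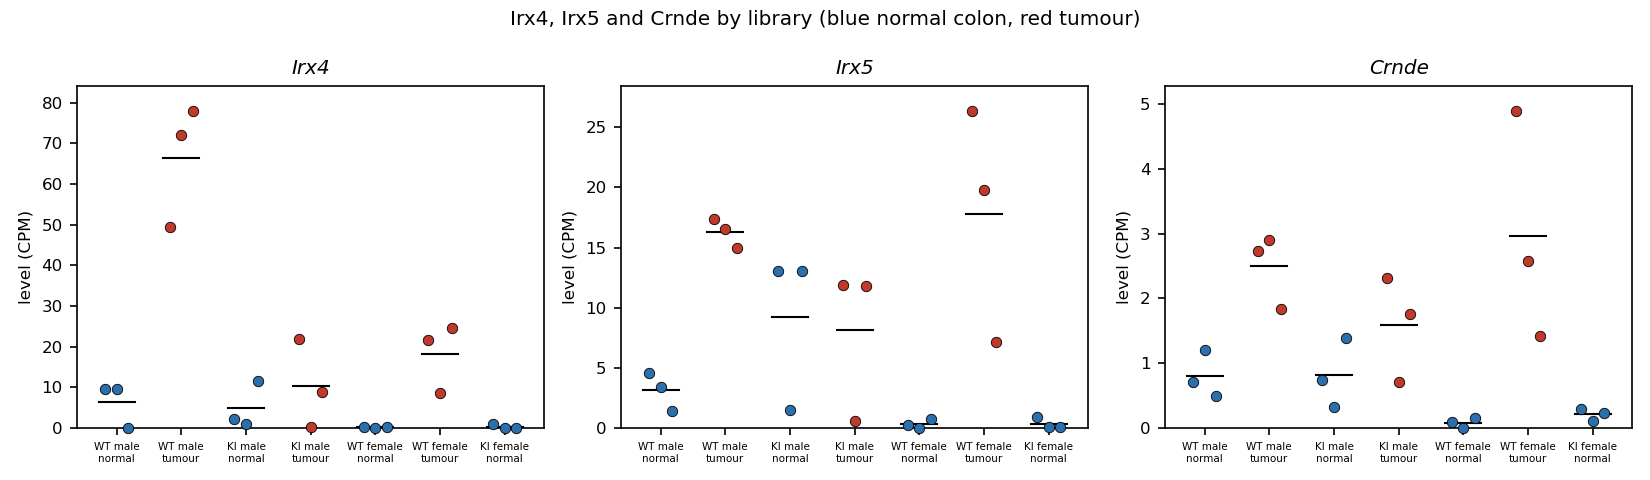
Levels of Irx4, Irx5 and their neighbour Crnde in CPM (vertical axes, linear, from 0) in the 7 groups (horizontal axes); each point is a library, blue for normal colon and red for tumour, and bars are means of 3. Irx4 reached 49.4 to 77.9 CPM in WT male tumours, while the second KI male tumour stood at 0.296 CPM for Irx4 and 0.591 CPM for Irx5.

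WT female tumours were compared with WT female normal colon first. The choice of the family is taken here to rest on the WT male libraries; earlier results for all groups were known when it was made, so the tests in females may not be fully independent of it. Irx4, Irx5 and Irx3 passed the test as higher in tumours, 3 of the 4 tested members, in a comparison in which 49.1% of all tested genes passed and 25% passed as higher. In the quasi-likelihood test of edgeR, adjusted by Benjamini-Hochberg over all tested genes, the log2 fold change was 6.98 for Irx4 (SE 1.88, adjusted p 0.00636) and 5.81 for Irx5 (SE 1.23, adjusted p 0.00104). Because WT female normal colon held only 5 counts of Irx4 and 11 of Irx5, these fitted values depend on few reads. The ratio of summed counts scaled by library size was 136 for Irx4, with an exact 95% interval of 58 to 422, and 57.9 for Irx5, with an interval of 32.05 to 117; both intervals cover counting error only.

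Irx3, expressed in hypothalamic neurons and adipocyte precursors among other cells, rested on far fewer reads in the same comparison. WT female tumours had 3, 10 and 1 counts (0.407, 1.17 and 0.109 CPM) and normal colon 0, 0 and 1 (0, 0 and 0.155 CPM), so the groups overlapped by 1 library. Its log2 fold change was 3.87 (SE 1.5, adjusted p 0.0399 in edgeR), and the summed counts of 14 against 1 gave a ratio of 20.8 with an interval of 3.16 to 879. The call was lost with the replicate number as a block (adjusted p 0.0654 in edgeR), and also without WT female normal replicate 1 (0.208) or 2 (0.0856), or without WT female tumour replicate 1 (0.0511) or 2 (0.224). It was lost too without the 3 libraries of the series whose label number is 152 or higher (0.191), which leaves WT female tumour replicate 1 alone in its group with a spread assumed from the other groups. It was lost as well without the 7 libraries high in squamous markers (0.0799), none of which is a WT female library. Irx2 had 10, 3 and 2 counts in WT female tumours and 0, 1 and 0 in normal colon. The groups did not overlap, as for 29.9% of tested genes that were higher. The tumour counts of 3 and 2 are no higher than the smallest measurable amount, so the separation is uncertain. Irx2 did not pass (log2 fold change 4.01, SE 1.67, adjusted p 0.0545 in edgeR), and its ratio of 15 to 1 counts was 22.3 with an interval of 3.43 to 938. It passed with library totals in place of scaling factors (adjusted p 0.0447 in edgeR), in DESeq2 (adjusted p 0.0285), without the libraries numbered 152 and above (0.0375 in edgeR) and without those high in squamous markers (0.0291 in edgeR). Leaving out WT female normal replicate 2 (0.0468) or WT female tumour replicate 3 (0.0466) also brought it past the threshold in edgeR. The squamous marker sum stood apart in these tumours too, at 49.9 to 139 CPM against 2.32 to 4.04 CPM. Of the 4 markers, 0 passed the threshold. Krt14 (38.9 to 78.6 against 1.39 to 2.58 CPM) and Krt13 were higher without overlap, as were 29.9% of all tested genes. Krt5 and Trp63 overlapped between the groups, with Krt5 at 0, 2.69 and 35.1 CPM in the tumours. The part of squamous tissue in the Irx2 and Irx3 values was not tested.

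In WT males, where no test is read, the values had the same direction for each tested member. The fitted log2 fold change of tumour over normal colon was 3.34 for Irx4 (SE 1.19), 2.35 for Irx5 (SE 0.92), 1.15 for Irx2 (SE 1.30) and 1.04 for Irx3 (SE 1.13). Without WT male normal replicate 1, which held all 8 Irx2 counts of its group, the value of Irx2 was 5.15, fitted against a group at 0 and no bound. Irx4 and Irx5 were higher without overlap between the groups, as were 26% of all tested genes.

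In KI males, 0 members passed the test between tumour and normal colon, where 20.4% of all tested genes did; 0 members had an unadjusted p under 0.05 in edgeR, and 0 passed in DESeq2. The log2 fold change was 1.10 for Irx4 (SE 1.17, adjusted p 0.523 in edgeR) and -0.18 for Irx5 (SE 0.87, adjusted p 0.901 in edgeR). That of Irx4 was -0.19 without KI male tumour replicate 1, and that of Irx5 0.35 without tumour replicate 2, so neither had a stable sign. Irx2 and Irx3 had values of 1.78 (SE 1.06, adjusted p 0.235 in edgeR) and 1.03 (SE 0.84, adjusted p 0.395 in edgeR).

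Whether the difference of tumour from normal colon, called the tumour effect here, varied by genotype was tested directly as an interaction. The KI male effect minus the WT male effect was -2.53 for Irx5 (SE 1.25, adjusted p 0.218 in edgeR) and -2.24 for Irx4 (SE 1.62, adjusted p 0.396 in edgeR). No member passed, against 1.51% of all tested genes; 0 members had an unadjusted p under 0.05 in edgeR and 0 passed in DESeq2. These interactions and those that follow use the WT male libraries that brought the family forward. The corresponding difference between WT females and WT males was 3.47 for Irx5 (SE 1.54, adjusted p 0.324 in edgeR) and 3.64 for Irx4 (SE 2.41, adjusted p 0.562 in edgeR), and 0 members passed, against 1.12% of all tested genes, with 1 (Irx5) at an unadjusted p under 0.05 in edgeR and 0 passing in DESeq2. The genotype effect in normal colon was tested between the sexes too, and 0 members passed, against 2.54% of all tested genes, with 0 at an unadjusted p under 0.05 in edgeR and 0 passing in DESeq2.

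**Figure D2:**
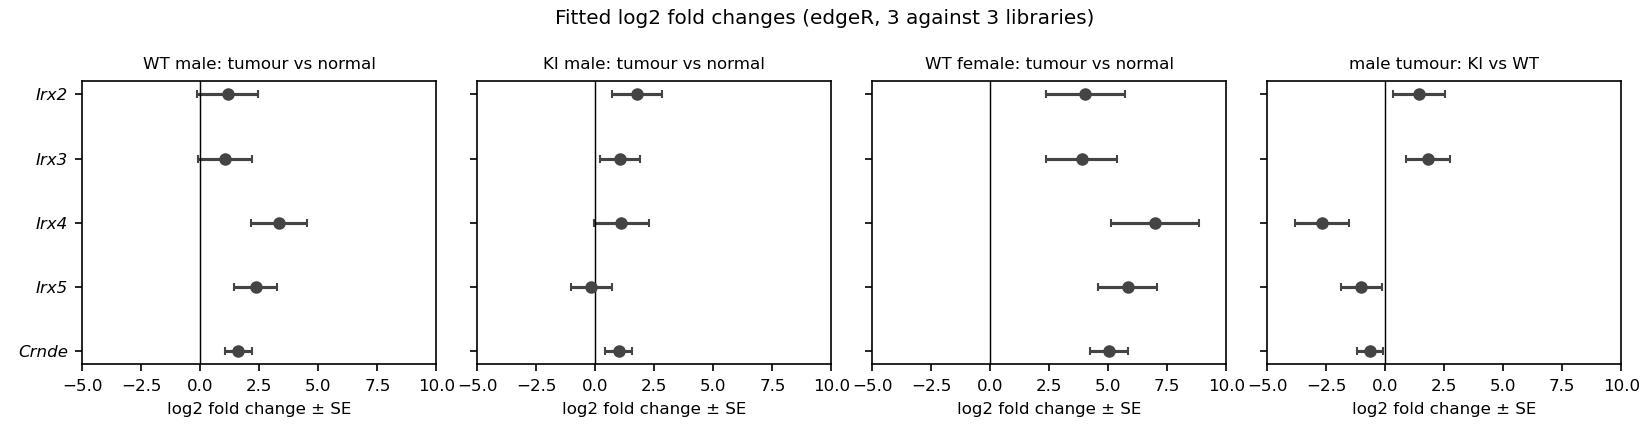
Fitted log2 fold changes (horizontal axes) of the 4 tested Irx genes and Crnde in 4 comparisons; points are edgeR estimates from 3 against 3 libraries and bars are 1 SE on each side. In WT females all 5 genes lie between 3.87 and 6.98. In KI males Irx5 lies at -0.18, with no stable sign, and the others lie between 0.98 and 1.78. The WT male panel is a description only.

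Male tumours of the genotypes were compared next, which reuses the WT male tumours. Irx4 averaged 10.4 CPM in KI and 66.5 CPM in WT tumours, with every KI tumour below every WT tumour, and its log2 fold change was -2.68 (SE 1.15, adjusted p 0.122 in edgeR). Irx5 also lay lower without overlap, at -1.02 (SE 0.87, adjusted p 0.436 in edgeR). Of all tested genes, 16.1% were lower without overlap. Irx3 lay on the other side, at 0.748, 1.12 and 2.44 CPM in KI tumours against 0.504, 0.582 and 0.184 CPM in WT tumours. These groups did not overlap either, as for 20.2% of all tested genes that were higher. WT male tumours held only 11 Irx3 counts in all. In their replicate 2 the smallest measurable amount was 0.873 CPM, above the lowest KI tumour, so the separation is uncertain. The log2 fold change of Irx3 was 1.81 (SE 0.95, adjusted p 0.194 in edgeR). For Irx2 it was 1.42 (SE 1.10, adjusted p 0.389 in edgeR). No member passed the test, against 14.5% of all tested genes; 1 member (Irx4) had an unadjusted p under 0.05 in edgeR, and 0 passed in DESeq2.

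The KI tumour with the least Irx4 and Irx5, replicate 2, was also the library with the most squamous marker RNA, 2572 CPM against 41.35 and 301 CPM in the other KI male tumours. Its Wnt target sum was 809 CPM, against 1874 and 1631 CPM. Without it, the log2 fold change between KI and WT male tumours was -2.12 for Irx4 (adjusted p 0.252 in edgeR) and -0.48 for Irx5 (adjusted p 0.738 in edgeR). Without all 7 libraries high in squamous markers, KI male tumour replicate 1 alone remained in its group, and the log2 fold change of Irx4 was -1.80 (adjusted p 0.586 in edgeR). The part of squamous tissue in these differences was not tested.

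In normal colon, 0 members passed between KI and WT males, where 0.0126% of tested genes did, and 0 had an unadjusted p under 0.05 in edgeR or passed in DESeq2. That comparison reuses the WT male normal libraries behind the choice of the family. The log2 fold changes of Irx3 and Irx5 were 1.82 (SE 1.02) and 1.51 (SE 0.90). Between KI and WT females 0 members passed either, against 16% of all tested genes, while 2 had an unadjusted p under 0.05 in edgeR and 0 passed in DESeq2. Those 2 were Irx3 (log2 fold change 3.86, SE 1.45, adjusted p 0.0774 in edgeR) and Irx2 (3.72, SE 1.65, adjusted p 0.131 in edgeR). In counts, Irx3 had 16, 3 and 4 in KI against 0, 0 and 1 in WT females, without overlap as for 19.6% of tested genes that were higher. The KI libraries with 3 and 4 counts stood at 0.337 and 0.306 CPM. In WT female normal replicates 2 and 3 the smallest measurable amount was 0.418 and 0.464 CPM, so the separation is uncertain. Irx2 had 14, 1 and 6 counts in KI against 0, 1 and 0 in WT females, with overlap. KI female replicate 1 and library b, with 14 and 6 Irx2 counts, are high in squamous markers, at 471 and 455 CPM against 2.47 CPM in library a and 2.32 to 4.04 CPM in WT females. The 4 markers had a median log2 fold change of 6.66 here, with 0 passing the test and 2 at an unadjusted p under 0.05 in edgeR. Without the libraries high in squamous markers, which leaves library a alone in its group, the log2 fold change was 1.62 for Irx2 (adjusted p 0.728 in edgeR) and 3.11 for Irx3 (adjusted p 0.459 in edgeR). Over the 12 normal libraries r of log2 values with the squamous sum was 0.78 for Irx2 and 0.43 for Irx3, and the part of squamous tissue was not tested. The authors' deposited table gives Irx3 a log2 fold change of 3.93 with an adjusted p of 0.0427 for this pair.

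Between the sexes, Irx4 and Irx5 were at most 0.952 and 0.892 CPM in female normal colon of both genotypes. Several of these female libraries were at or under 3 counts. Most male normal libraries lay above these levels. The WT comparisons below, of normal colon and of tumours, reuse the WT male libraries that brought the family forward. In WT mice the log2 fold change of female over male normal colon was -5.50 for Irx4 (SE 1.95, adjusted p 0.0672 in edgeR) and -3.35 for Irx5 (SE 1.26, adjusted p 0.0807 in edgeR). No member passed, against 15.9% of all tested genes; 2 members had an unadjusted p under 0.05 in edgeR, and these 2 passed in DESeq2. The authors' deposited table, which sets males over females, has log2 fold changes of 5.50 (adjusted p 0.0114) and 3.26 (adjusted p 0.0240) for the same 2 genes. In KI mice the change was -4.43 for Irx5 (SE 1.13, adjusted p 0.0828 in edgeR), without overlap as for 9.7% of tested genes that were lower, and -3.59 for Irx4 (SE 1.60, adjusted p 0.30 in edgeR). No member passed, against 0.584% of all tested genes, 2 had an unadjusted p under 0.05 in edgeR, and 1 (Irx5) passed in DESeq2. Without KI male normal replicate 2, Irx5 passed in edgeR as well (adjusted p 0.0201). In WT tumours, Irx4 was lower in females than in males without overlap, as for 15.2% of tested genes, at -1.86 (SE 1.12, adjusted p 0.357 in edgeR). There 0 members passed, against 0.86% of all tested genes, with 0 at an unadjusted p under 0.05 in edgeR and 0 passing in DESeq2.

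Crnde averaged 2.50 ± 0.57 CPM (SD, n = 3) in WT male tumours and 0.801 ± 0.359 in WT male normal colon, 2.96 ± 1.77 in WT female tumours and 0.0797 ± 0.0775 in WT female normal colon, and 1.59 ± 0.81 against 0.815 ± 0.536 in KI male tumours and normal colon, where Irx5 averaged 8.10 and 9.19 CPM. Of its 71 counts in WT female tumours against 3 in normal colon, the ratio was 35.2 with an interval of 11.55 to 175, and the log2 fold change of 5.02 passed the test (SE 0.79, adjusted p 4.73e-05 in edgeR). It was also lower in WT female than in WT male normal colon (log2 fold change -3.18, SE 0.84, adjusted p 0.0162 in edgeR), a call lost without WT female normal replicate 1 (0.0871) or 2 (0.0656), without WT male normal replicate 2 (0.0582) and without the libraries high in squamous markers (0.0911). Over the 12 normal libraries, Pearson's r of log2 CPM between Irx5 and Crnde was 0.90, and over the 9 tumour libraries 0.90, with Spearman's rho of 0.91 and 0.92. Without the 2 libraries of each set whose Crnde lay farthest from the median, r was 0.90 and 0.84. With the summed Wnt targets described below, r of Crnde was 0.95 in normal colon (rho 0.965), above its value with Irx5, and 0.62 in tumours (rho 0.317). Among 12631 genes ranked by the smaller of the 2 Pearson values, Irx5 was the gene most like Crnde (0.895). The genes most like Irx5, named below, had higher values with it. Crnde could not appear among them, because its mean was under 50 counts in every group. The libraries share depth, groups and composition, so these values are descriptions.

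The start of Crnde is shown because it faces Irx5 across the 1505 bases between them, and that of Irx4 because it is the most abundant member. The RefSeq promoter table (GRCm38.p6) matched 3 of the 6 members (Irx2, Irx3 and Irx4) and Crnde. Each line gives the 250 bases before the start site, 5′ to 3′ on the gene's strand, Crnde from chr8:92356121-92356370 (minus) and Irx4 from chr13:73260247-73260496 (plus).
Crnde: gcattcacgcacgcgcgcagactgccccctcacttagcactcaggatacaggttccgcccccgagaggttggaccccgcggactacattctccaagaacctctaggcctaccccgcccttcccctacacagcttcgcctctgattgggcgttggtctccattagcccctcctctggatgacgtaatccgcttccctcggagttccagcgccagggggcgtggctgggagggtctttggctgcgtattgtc
Irx4: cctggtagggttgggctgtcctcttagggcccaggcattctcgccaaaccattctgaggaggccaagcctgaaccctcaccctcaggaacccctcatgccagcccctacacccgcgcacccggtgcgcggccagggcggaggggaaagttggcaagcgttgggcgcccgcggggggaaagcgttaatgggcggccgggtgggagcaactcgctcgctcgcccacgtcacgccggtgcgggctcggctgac
Neither the TCF/LEF letters CTTTGA nor the Iroquois letters ACANNTGT, searched on both strands, occurred in the 300 bases around the starts of Irx2, Irx3, Irx4 or Crnde, so no letters are in capitals. Of 32851 promoters of that length, 16% held CTTTGA and 7.38% held ACANNTGT. GC content was 70.7% for Irx4, 69% for Irx2, 56% for Irx3 and 62.7% for Crnde over the same 300 bases.

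Wnt feedback targets, a list of 10 genes, were set beside Irx4 and Irx5. All 10 passed as higher in WT female tumours (median log2 fold change 3.95, against 0.01 over all tested genes), among them Notum (6.37, SE 1.20, adjusted p 0.000463 in edgeR), which encodes a secreted inhibitor of Wnt ligands. Of all tested genes 49.1% passed there, and 25% as higher. In WT males, described without a test as for the members, the median was 1.86 (against 0.01). All 10 were higher there without overlap, as were 26% of all tested genes. In KI males 0 passed (median 0.66, against 0.01), where 20.4% of all tested genes did, with 4 of the list at an unadjusted p under 0.05 in edgeR. All 10 passed as lower in WT female than in WT male normal colon (median -2.35, against -0.004), where 15.9% of all tested genes passed in either direction.

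Within normal colon the library sums of these targets were uneven. WT male normal replicates 1, 2 and 3 had 811, 952 and 313 CPM, and KI male normal replicates 1, 2 and 3 had 1152, 346 and 1228 CPM. The 6 female normal libraries lay between 129 and 282 CPM. The male libraries with the low sums, WT replicate 3 and KI replicate 2, were the ones with the lowest Irx4 and Irx5 in their groups. Over the 12 normal libraries, Pearson's r of log2 values with the Wnt sum was 0.88 for Irx4 and 0.93 for Irx5, with rho of 0.76 and 0.93. Over the 9 tumour libraries r was 0.98 and 0.83, and rho 0.88 and 0.33. Irx4 and Irx5 were related to each other with r of 0.85 in normal colon and 0.82 in tumours, where rho was 0.18. KI male tumour replicate 2 was the lowest tumour in both genes. Without the 2 tumours whose Irx5 lay farthest from the median, r of Irx4 with Irx5 was 0.038, and without the 2 whose Wnt sum lay farthest, r with that sum was 0.88 for Irx4 and 0.021 for Irx5, so the tumour values of Irx5 rest on those libraries. In normal colon the same step left r at 0.85 between Irx4 and Irx5, and at 0.88 and 0.86 with the Wnt sum. The sum of 6 epithelial markers ran the other way in normal colon, with r of -0.85 for Irx4 and -0.80 for Irx5. How much of any Irx difference goes with the Wnt target level was not tested.

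**Figure D3:**
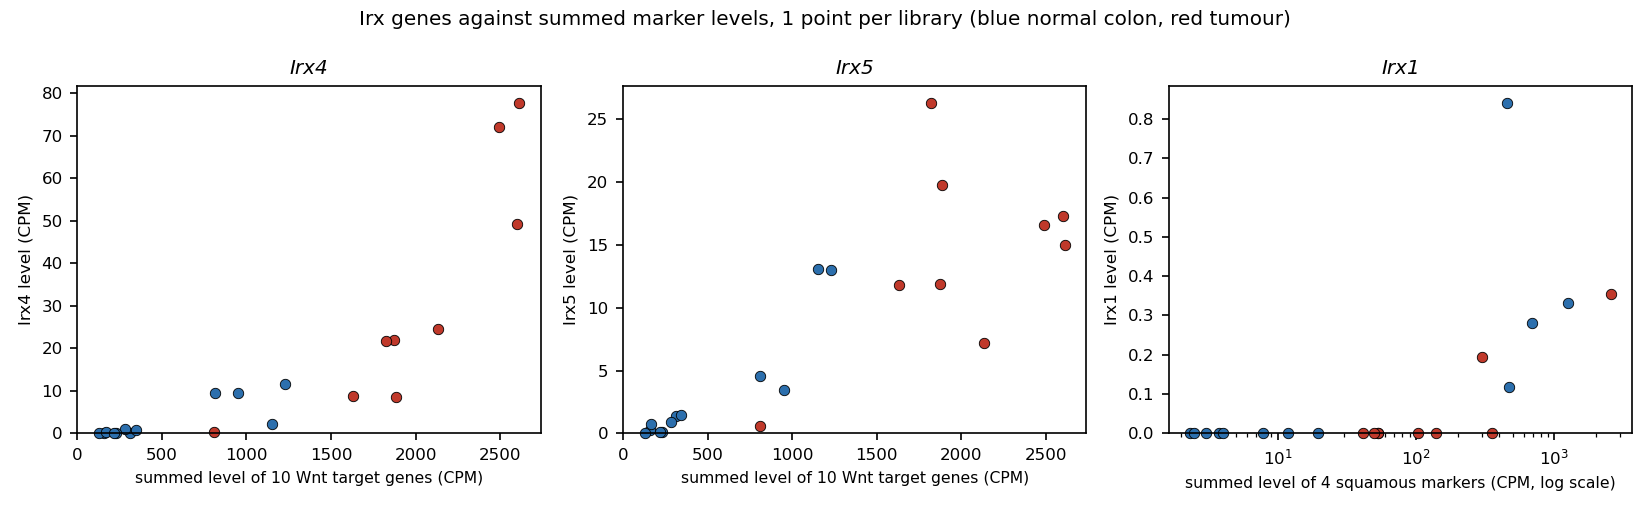
Levels of Irx4, Irx5 and Irx1 (CPM, vertical axes) against the summed CPM of 10 Wnt target genes (left and middle, linear) or 4 squamous markers (right, log scale); each point is a library, blue for normal colon and red for tumour. In the libraries with Wnt sums of 129 to 346 CPM, Irx4 is at most 0.952 CPM and Irx5 at most 1.46 CPM, and Irx1 is above 0 only in libraries with squamous sums of 301 CPM or more.

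The genes most like Irx4 over both sets of libraries were Slco5a1 (smaller Pearson's r 0.96), Onecut2 (0.96) and Adamts17 (0.94). Onecut2, a transcription factor gene, averaged 240 ± 83.0 CPM (SD, n = 3) in WT male tumours and 0.720 ± 0.115 CPM in WT female normal colon. For Irx5 they were Jakmip3 (0.94), Slc44a5 (0.93) and Mt4 (0.92). For the low members the likeness was weaker, with Ces2f (0.74), Mreg (0.73) and Slc14a1 (0.73) for Irx2 and Eid2b (0.67), Agt (0.66) and Tnni2 (0.66) for Irx3. Counts of Irx2 and Irx3 are so sparse that these last values are no finding.

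Irx2 and Irx3 were low throughout. Over the 9 tumour libraries r of Irx4 was -0.55 with Irx3 and -0.38 with Irx2, and over the 12 normal libraries 0.40 and 0.12; with counts this sparse, these values are no finding either. The highest levels of both low members in the series were in KI male tumour replicate 3, at 2.05 CPM for Irx2 (21 counts) and 2.44 CPM for Irx3 (25 counts). Irx2, studied in lung and mammary development, had 0, 18 and 21 counts in KI male tumours, 4, 6 and 1 in KI male normal colon, 4, 2 and 4 in WT male tumours and 8, 0 and 0 in WT male normal colon. Its KI tumour values spanned the range of all other groups. Irx3 had 11, 19 and 25 counts in KI male tumours, 10, 0 and 14 in KI male normal colon, 7, 2 and 2 in WT male tumours and 2, 4 and 2 in WT male normal colon.

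Irx1 and Irx6 were at the limit of detection. Irx1, studied in lung, kidney and digit development, had 7 counts in WT male normal replicate 1, 3 in KI male normal replicate 1, 6 and 2 in KI male tumour replicates 2 and 3, 2 in KI female normal replicate 1 and 11 in library b of that group. The other 15 libraries had none, including all WT tumours and all WT female normal libraries, where a count of 0 allows up to 3 counts. All 31 Irx1 counts fell in 6 of the 7 libraries high in squamous markers, and 0 in the other 14. Irx2 had 75 of its 105 counts in those 7 libraries and Irx3 83 of 136, against 1023 of 3180 for Irx4 and 624 of 1694 for Irx5. As shares these are 71.4%, 61%, 32.2% and 36.8%, where the 7 libraries hold 39.8% of the counts of all genes. The limit of 200 CPM that separates the 7 libraries was set after the values were seen, and the part of squamous tissue in the Irx1 counts was not tested.

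Irx6, studied in bipolar cells of the retina, showed another distribution, with 1, 3 and 7 counts in WT male normal colon, 3 in WT female normal replicate 1, 2 in KI male normal replicate 2, 3 in KI female normal library a and 1 in WT male tumour replicate 3. The 9 tumour libraries held 1 Irx6 count in all. Only 1 of the 20 Irx6 counts lay in a library high in squamous markers. At these depths no difference between groups could be measured for either gene.

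**Figure D4:**
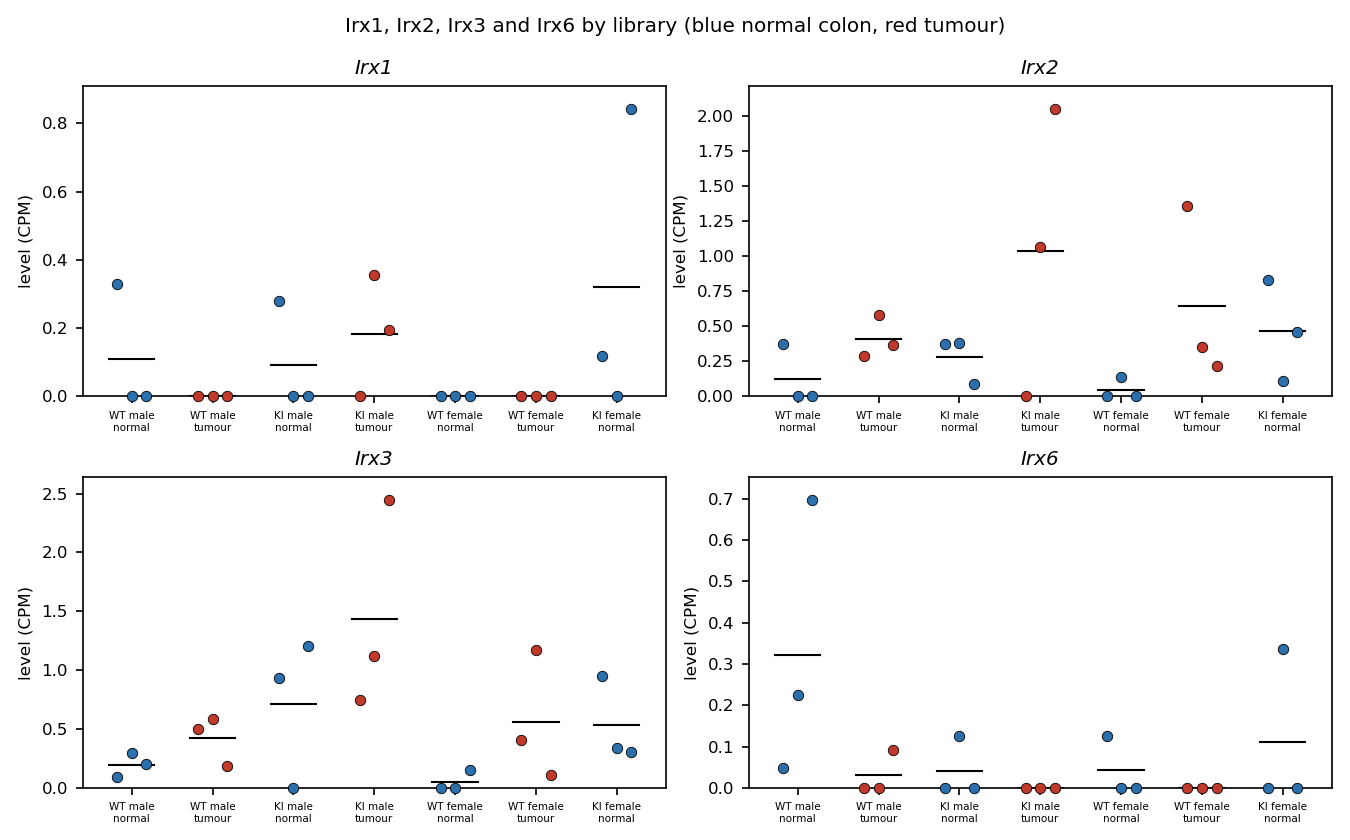
Levels of Irx1, Irx2, Irx3 and Irx6 in CPM (vertical axes, linear, from 0, with a different scale in each panel) in the 7 groups; each point is a library, blue for normal colon and red for tumour, and bars are means of 3. Irx1 is at 0 in 15 of 21 libraries, and the highest Irx2 and Irx3 points, 2.05 and 2.44 CPM, are the same KI male tumour.

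The genes that flank the clusters were examined as a further comparison. Of the 2 nearest protein-coding genes on each side of either cluster, Ice1 has no row in the table under that symbol and 7 were tested. In WT female tumours 4 passed as higher and 1 as lower, with log2 fold changes of 1.65 for Mmp2 (SE 0.19, adjusted p 1.93e-06 in edgeR), 1.27 for Adamts16 (SE 0.51), 0.60 for Rpgrip1l (SE 0.19), 0.52 for Fto (SE 0.09) and -0.48 for Ndufs6 (SE 0.14). These 5 of 7 stand beside 49.1% of all tested genes. The median of 0.52 over the 7 compares with 0.01 over all genes, and each of the 5 was below the changes of Irx4 and Irx5. In KI males 2 of 7 passed as higher, Rpgrip1l (0.61, SE 0.19) and Mmp2 (0.55, SE 0.18), and in WT males 0 passed, with 2 at an unadjusted p under 0.05; the shares of all tested genes were 20.4% and 35.7%.

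Other TALE homeobox genes, whose products include the Meis and Pbx partners of Hox proteins, were given as a list of 12, all tested. In WT female tumours 2 passed as higher and 1 as lower (median 0.12, against 0.01 over all genes). The higher ones were the transcriptional repressor genes Tgif1 (1.80, SE 0.24, adjusted p 9.7e-06 in edgeR) and Tgif2 (1.43, SE 0.28, adjusted p 0.000325 in edgeR), and the lower one was the tendon regulator gene Mkx (-1.16, SE 0.33, adjusted p 0.00699 in edgeR). In WT males 3 passed as higher and 3 as lower, with Tgif2 at 1.49 (SE 0.27) and Meis1 at -2.15 (SE 0.66). In KI males 0 of 12 passed, with 3 at an unadjusted p under 0.05 in edgeR. The shares of all tested genes that passed were 49.1%, 35.7% and 20.4% in these 3 comparisons. Between KI and WT male tumours, Meis1 (2.12, SE 0.66, adjusted p 0.0438 in edgeR) and Mkx (1.30, SE 0.35, adjusted p 0.0238 in edgeR) passed as higher in KI, where 14.5% of all tested genes passed. Smooth muscle markers had a median of 1.34 there, with 0 of 6 past the threshold. Of these markers 5 of 6 were higher without overlap, as were 20.2% of all tested genes. Their part in the values of Meis1 and Mkx was not tested.

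Genes described elsewhere as Irx targets or partners, mostly in heart, were a list of 12, of which 9 were tested. In WT female tumours 4 passed as higher and 3 as lower (median -0.25, against 0.01 over all genes), in WT males 2 and 3 (median -0.54), and in KI males 1 and 2 (median -0.18). The calls of 7, 5 and 3 of 9 genes stand beside 49.1%, 35.7% and 20.4% of all tested genes. Kcnd3, a cardiac and smooth muscle potassium channel gene, was lower in all 3, at -3.77 in WT females (SE 0.43), -3.80 in WT males (SE 0.41) and -2.08 in KI males (SE 0.34). The chemokine gene Cxcl12 was lower in all 3 as well, at -1.27 (SE 0.25), -2.08 (SE 0.25) and -0.86 (SE 0.23). Smooth muscle markers fell in the same 3 comparisons, with medians of -4.20, -4.31 and -2.75, and their part in the values of Kcnd3 and Cxcl12 was not tested.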

How the data were processed

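The deposited table holds raw counts per gene in 21 libraries, made by the authors with featureCounts after Trimmomatic and HISAT2 on mm10, per the submitters' processing notes and the file headers; versions, annotation and strand setting are not given in the sources used here. A second table holds the authors' DESeq2 log2 fold changes and adjusted p-values, per the file headers; its 21 columns of log2 values per library were not used. In the table of counts, 2 columns of KI female normal colon share a header and were used as unnumbered libraries a and b.

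Counts were tested with edgeR 4.0.16 (R 4.3.3): TMM scaling, filterByExpr by group, robust quasi-likelihood F test, two-sided, 1 coefficient per group over all 21 libraries, Benjamini-Hochberg adjustment over 15936 genes, threshold 0.05. An SE is the log2 fold change divided by the root of F. Log2 CPM used a prior count of 2. Ratios of summed counts have exact 95% intervals, for counting error only.

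Members and lists were chosen with earlier results of these data known. The genes named are all members, list genes with the largest or smallest values, and for each tested member the 3 genes of highest likeness with a mean of at least 50 counts in 1 group. Chosen after values were seen were App, the limit of 200 CPM and Crnde's role beside Irx5.

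Same-numbered libraries (numbers from the library names) gave 3 pairs in most comparisons. Among these, only WT male tumour and normal colon had r over 0.1 in every pair (0.17 to 0.21). The block was taken as pairing there. Single pairs elsewhere had r from -0.30 to 0.46, and those of WT female tumour and normal colon from -0.064 to 0.0066. The main fit had no block. The block fit used the same replicate effects in all groups and left out libraries a and b, which have no numbers. Alternatives were DESeq2 1.42.0, other scaling, no filter, only the compared groups, the replicate block, leaving out libraries numbered 152 and above, those high in squamous markers (added after seeing the data), or each library.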

Additional observations from a re-analysis of the deposited data

How the results depend on the processing

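Of the counts of members called, 166 recomputed values were within 1.5 times the main count and 6 were not; no call is counted between WT male tumour and normal colon. Between WT female and WT male normal colon 0 calls became 2 in DESeq2 and 1 with only the compared groups, and 0 to 1 when a library was left out, with 1 without WT male normal replicate 3. Between KI female and KI male normal colon 0 became 1 in DESeq2, and 0 to 1 when a library was left out, with 1 without KI male normal replicate 2. Between WT female and WT male tumours 0 became 1 with only the compared groups. The cause was not tested, apart from the smaller number of libraries where some were left out. The count of 3 in WT female tumours was 2 to 4 under all settings run, and Irx4 and Irx5 passed there in each of them; with the replicate block the adjusted p of Irx3 was 0.0654.

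Of the fold changes printed, 443 recomputed values kept sign and side of the threshold (between WT male tumour and normal colon, sign and a value within 1 SE), 11 lost the call, 13 gained it and 7 changed sign, none of the 7 past the threshold. Between WT male tumour and normal colon 2 values moved further, both of Irx2, to 5.15 without normal replicate 1 and 5.28 without the libraries high in squamous markers. In KI males, tumour over normal colon, Irx5 was 0.13 and 0.17 without normal replicates 1 and 3, 0.35 without tumour replicate 2 (range -0.74 to 0.35) and 0.72 without the libraries high in squamous markers. Irx4 was -0.19 without tumour replicate 1 (range -0.19 to 2.78). Irx2 was -4.48 without the libraries high in squamous markers, and -5.28 between KI and WT male tumours, where 1 KI tumour with 0 Irx2 counts remained. Depth limits Irx1, Irx2, Irx3 and Irx6, whose counts per library did not exceed 25.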
